A study of Chlorocebus sabaeus with 10 samples.

Results

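Fructose handling in the liver was followed through 8 genes of fructose uptake, fructolysis and the polyol pathway, measured by RNA-Seq in vervet monkey livers. The genes were the hexose transporters SLC2A2, SLC2A5 and SLC2A8, the fructolysis enzymes KHK, TKFC and GLYCTK, and the polyol pathway enzymes AKR1B1 and SORD. Each was found in the table of estimated transcript counts by its gene symbol, and each had 1 transcript there, among 23352 genes in all. Of the 8 genes, 6 had enough counts to be tested for an effect of diet, and SLC2A5 and SLC2A8 did not.

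The livers came from 10 female vervet monkeys (Chlorocebus sabaeus), an Old World primate, and each animal gave 1 library. For 6 weeks, 5 animals were fed a high fructose (HFr) diet and 5 were fed chow, the diet that all 10 had eaten before. Animals were assigned to the diets so as to balance age and body weight. The mean age that the paper reports was nonetheless higher in the HFr group than in the chow group. No genetic modification is named for either group. The composition of the diets is not given in the sources used here. The comparison of HFr with chow addressed which liver transcripts differ in level after short-term feeding of fructose.

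Fructose enters cells through facilitative transporters of the SLC2A family. In hepatocytes, ketohexokinase (KHK) phosphorylates it to fructose 1-phosphate, which is then split into dihydroxyacetone phosphate and glyceraldehyde. Triokinase (TKFC) phosphorylates the glyceraldehyde, which can otherwise be oxidized to glycerate and phosphorylated by glycerate kinase (GLYCTK). Cells can also make fructose from glucose by the polyol pathway, in which aldose reductase (AKR1B1) forms sorbitol and sorbitol dehydrogenase (SORD) oxidizes it to fructose.

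On the HFr diet, SORD was at 0.730 times its chow level and SLC2A2, the main hexose transporter of hepatocytes, at 0.732 times. Both were below the chow mean in 5 of 5 HFr animals. KHK, TKFC and AKR1B1 had fitted folds of 1.16, 0.915 and 1.04, and GLYCTK had a fold of 1.40 with wide spread on the HFr diet. The 95% interval of the fold lay below 1 for SORD alone. It spanned 1 for the other genes tested, among them SLC2A2 (0.534 to 1.004) and GLYCTK (0.928 to 2.10). No fructose gene passed the test after adjustment over all 7948 tested transcripts (edgeR quasi-likelihood test, Benjamini-Hochberg adjusted p = 0.9996 for each of the 6), and neither did any other transcript, so that 0% of all transcripts were called. Before adjustment, SORD alone of the 6 genes had a p under 0.05, against 4.29% of all tested transcripts and 2.23% with such a p and a lower level on HFr. The values of the diets overlapped in all 6 genes. Over all tested transcripts, 0.541% had values that did not overlap.

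Levels below are normalized counts, the estimated counts in CPM of each library, scaled by TMM, a trimmed mean of log ratios between libraries. A log2 fold change is HFr minus chow from the edgeR fit, and a permutation p is the exact two-sided test over the 252 ways to assign 5 of 10 animals, whose smallest possible value is 0.00794. Transcript lengths were not used here, so levels are compared between animals and not between genes.

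Library totals ranged from 2977282 to 4992505 estimated counts, of which transcripts of the mitochondrial genome took 34.7% to 73.6%. The counts left for nuclear transcripts ranged from 864571 to 2657103. The mitochondrial share averaged 55.5% ± 11.8 (SD, n = 5) for HFr and 55.4% ± 16.5 (SD, n = 5) for chow (exact permutation test, p = 0.992). All 10 hepatocyte markers were tested and none had an unadjusted edgeR p under 0.05, although TF, transferrin, had a permutation p of 0.0397 with 5 of 5 HFr livers above the chow mean (log2 fold change 0.37). They had a summed level of 46064 to 69879 on HFr and 39563 to 76898 on chow. Of 7 muscle markers, CKM and MYH2 were listed at 0 in all 10 livers, and the list summed to at most 2.22 on HFr and 2.74 on chow. Of 7 intestine and kidney tubule markers, 5 were at 0 in all livers (FABP2, SI, LRP2, SLC22A6, UMOD), CDX2 had 0 counts on HFr and 6 in all on chow, and VIL1, also made by bile duct cells, was at 6.78 to 11.2 on HFr and 2.53 to 11.9 on chow.

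SLC2A2 encodes GLUT2, a low-affinity carrier of glucose and fructose that is abundant in hepatocytes (ENSCSAG00000012727, chromosome 15, 18434916 to 18467353, plus strand, assembly ChlSab1.1). Its level in HFr animals 1 to 5 was 204, 140, 147, 201 and 171. In chow animals 1 to 5 it was 151, 309, 231, 269 and 217. Of the chow livers, 4 lay above every HFr liver, and chow animal 1 lay among the HFr values. The means were 173 ± 29.8 on HFr and 236 ± 59.4 on chow (SD, n = 5 each). The log2 fold change was -0.45 (SE 0.21, 95% interval -0.90 to 0.0055), with an unadjusted edgeR p of 0.0525 and a permutation p of 0.0794. The unadjusted p was under 0.05 in 6 of 23 alternatives, with the smallest value, 0.0118, without chow animal 1.

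SLC2A5 encodes GLUT5, the fructose carrier best known from the intestine (ENSCSAG00000000764, chromosome 20, 122683373 to 122716541). It had between 0 and 4 estimated counts per library, which summed to 9 on HFr and 10 on chow. The HFr libraries held 2, 4, 0, 0 and 3 counts and the chow libraries 4, 2, 4, 0 and 0. A library with 0 counts allows up to 3, which is a CPM of 0.601 to 1.01 of total counts in the 4 libraries concerned, counting error only. SLC2A5 was thus at or near the limit of detection in every liver, and a diet difference was not detectable at this depth. With no filter on low counts its log2 fold change was -0.11 (SE 0.83, unadjusted edgeR p = 0.895, permutation p = 0.857).

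SLC2A8 encodes GLUT8, a transporter found mainly on internal membranes (ENSCSAG00000013708, chromosome 12, 10720695 to 10730814). The HFr libraries held 0, 1, 4, 1 and 6 counts, 12 in all, and the chow libraries held 9, 5, 2, 2 and 4, 22 in all. With no filter, the log2 fold change was -0.93 (SE 0.72, unadjusted edgeR p = 0.205, permutation p = 0.151). The counts of SLC2A8 were too few to tell the diets apart.

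**Figure D1:**
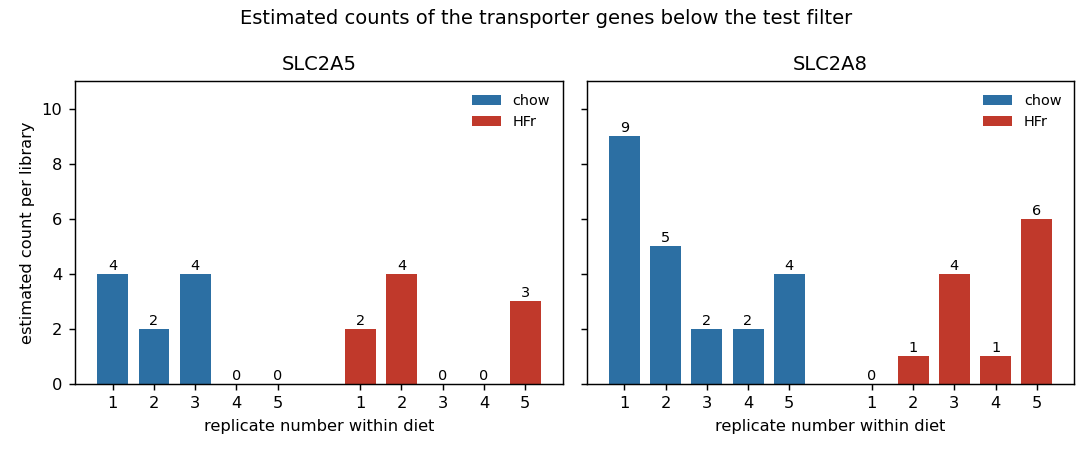
Estimated counts (y axis) of SLC2A5 and SLC2A8 in each library, with replicate numbers within each diet on the x axis and 1 bar per animal. No library held more than 4 counts of SLC2A5 or 9 counts of SLC2A8.

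KHK catalyzes the first committed step of fructolysis (ENSCSAG00000009540, chromosome 14, 80514825 to 80531654, minus strand). Its level in HFr animals 1 to 5 was 260, 289, 311, 517 and 250. In chow animals 1 to 5 it was 228, 342, 291, 311 and 227. All HFr livers but animal 4 lay within the chow range, and HFr animal 4 was above all others. The means of KHK were 326 ± 110 on HFr and 280 ± 50.9 on chow (SD, n = 5 each), with a log2 fold change of 0.22 (SE 0.23, 95% interval -0.27 to 0.71, unadjusted edgeR p = 0.356, permutation p = 0.5). Without HFr animal 4 it was -0.02. The interval in folds ran from 0.827 to 1.64, so a doubling of KHK message lay outside it. The gene CGREF1 overlaps KHK on the opposite strand and had 11 counts over all libraries, against 6343 KHK counts on HFr and 5252 on chow.

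TKFC, the triokinase that phosphorylates glyceraldehyde (ENSCSAG00000006398, chromosome 1, 12495477 to 12507928, minus strand), varied most between animals of the 6 tested genes. HFr animals 1 to 5 had levels of 21.1, 17.9, 20.6, 47.3 and 36.8. Chow animals 1 to 5 had levels of 25.6, 58.7, 28.6, 31.3 and 12.4. The highest and the lowest livers were both on chow, and the HFr values fell between them. The mean was 28.7 ± 12.8 (SD, n = 5) on HFr and 31.3 ± 16.9 (SD, n = 5) on chow, with a log2 fold change of -0.13 (SE 0.36, 95% interval -0.89 to 0.64, unadjusted edgeR p = 0.725, permutation p = 0.897). Leaving out chow animal 2 gave 0.24 and leaving out HFr animal 4 gave -0.39. The biological coefficient of variation of TKFC was 39.4%, at the 90.5th percentile of tested transcripts, whose median was 25.0%. Among the 1479 transcripts of a similar level, it was at the 94.4th percentile.

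GLYCTK, glycerate kinase (ENSCSAG00000013762, chromosome 22, 13651024 to 13653802, plus strand), had the largest positive difference of the fructose genes. Levels in HFr animals 1 to 5 were 21.5, 39.0, 14.1, 43.3 and 26.9. Levels in chow animals 1 to 5 were 14.6, 25.2, 24.9, 22.2 and 17.5. Of the HFr livers, 3 were above every chow liver, and HFr animal 3 was below every chow liver. The means of GLYCTK were 29.0 ± 12.1 on HFr and 20.9 ± 4.68 on chow (SD, n = 5 each), and its log2 fold change was 0.48 (SE 0.28, 95% interval -0.11 to 1.07, unadjusted edgeR p = 0.102, permutation p = 0.286). Single HFr animals moved it in both directions, to 0.64 without animal 3 (unadjusted p under 0.05) and to 0.29 without animal 4 (unadjusted p over 0.05).

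AKR1B1, aldose reductase (ENSCSAG00000009365, chromosome 21, 103059991 to 103077342, minus strand), rested on 13 to 40 counts per library. HFr animals 1 to 5 had levels of 9.42, 5.38, 8.07, 2.89 and 7.91. Chow animals 1 to 5 had levels of 5.71, 6.13, 5.50, 8.59 and 6.43. The HFr values spread to both sides of the chow values. The mean was 6.73 ± 2.60 (SD, n = 5) on HFr and 6.47 ± 1.24 (SD, n = 5) on chow. AKR1B1 had a log2 fold change of 0.06 (SE 0.30, 95% interval -0.59 to 0.71, unadjusted edgeR p = 0.854, permutation p = 0.968). Its sign turned under 6 of 23 alternatives. Reads of AKR1B1 may be shared with near copies in the aldo-keto reductase family, so its level is uncertain.

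SORD, sorbitol dehydrogenase (ENSCSAG00000009647, chromosome 26, 38126911 to 38155382, minus strand), showed the smallest p of the 6 genes. HFr animals 1 to 5 had levels of 328, 315, 284, 351 and 292. Chow animals 1 to 5 had levels of 287, 472, 458, 528 and 405. As for SLC2A2, 4 chow livers were above every HFr liver and chow animal 1 was among the HFr values. SORD averaged 314 ± 27.1 on HFr and 430 ± 91.1 on chow (SD, n = 5 each). The log2 fold change was -0.45 (SE 0.19, 95% interval -0.87 to -0.04), a fold of 0.730 (0.548 to 0.974). Its unadjusted edgeR p was 0.0344, the 232nd smallest of the 7948 tested, its adjusted p was 0.9996 and its permutation p was 0.0397. The sign was negative in all 23 alternatives, and the unadjusted p stayed under 0.05 in 13 of them (range 0.00668 to 0.233). It was over 0.05 when any of HFr animals 1, 2, 3 or 5 or chow animals 2, 3 or 4 was left out. With the mitochondrial share as a covariate, SORD had a log2 fold change of -0.45 and an unadjusted p under 0.05. That share differed by 0.07 percentage points between the diets and had r = 0.0011 with SORD, so this setting had little to adjust for SORD. It moved some other genes further, TKFC from -0.13 to -0.04 and ADH4 from -1.11 to -1.20. In bulk liver, fewer cells of a type and less RNA per cell cannot be told apart, for SORD or for any other gene here.

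**Figure D2:**
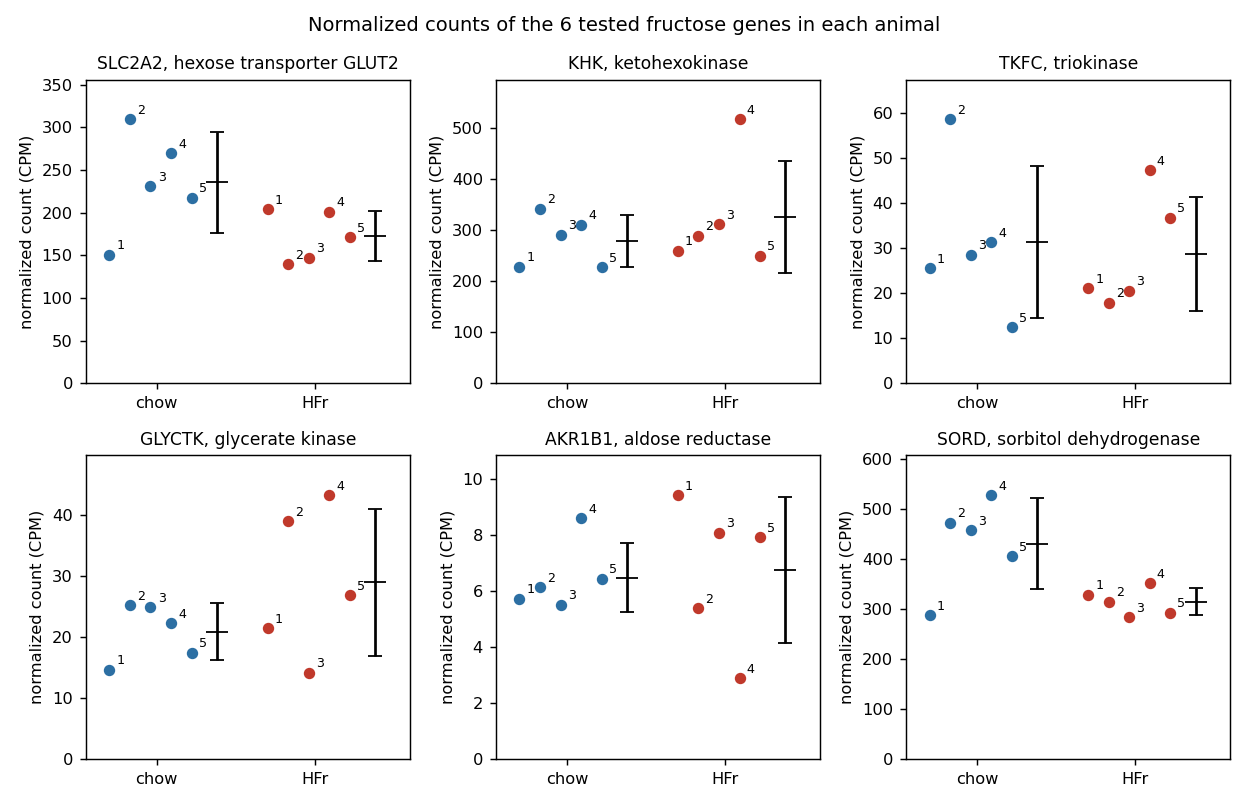
Normalized counts in CPM (y axis) of the 6 tested fructose genes on chow (blue) and HFr (red), 1 point per animal with its replicate number, and bars for mean ± SD (n = 5). SORD and SLC2A2 have 4 chow livers above all HFr livers, while the other genes overlap widely.

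The spread of SORD between animals was narrower on the HFr diet. The SD of its log2 level was 0.124 on HFr and 0.337 on chow, and the highest HFr liver was 1.24 times the lowest, against 1.84 times on chow. SLC2A2 gave SDs of 0.250 and 0.389. TKFC gave SDs of 0.588 on HFr and 0.769 on chow. For KHK, AKR1B1 and GLYCTK the SD was larger on HFr, at 0.421, 0.572 and 0.632, than on chow, at 0.266, 0.222 and 0.327. Several of these spreads rested on single livers. Without HFr animal 4 the SD of KHK on HFr was 0.143, below that on chow, and that of AKR1B1 was 0.300. Without chow animal 1 the SDs on chow were 0.157 for SORD and 0.228 for SLC2A2, the latter below that on HFr. Without chow animal 2 or 5 the SD of TKFC on chow was 0.578 or 0.523, below that on HFr. Differences in spread between diets were not tested.

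Single animals recurred at the ends of these ranges. HFr animal 4 had the highest KHK, TKFC, GLYCTK and SORD values and the lowest AKR1B1 value of the HFr livers. Chow animal 2 had the highest KHK, TKFC, SLC2A2 and GLYCTK values of the chow livers, and chow animal 1 the lowest SLC2A2, SORD and GLYCTK values.

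**Figure D3:**
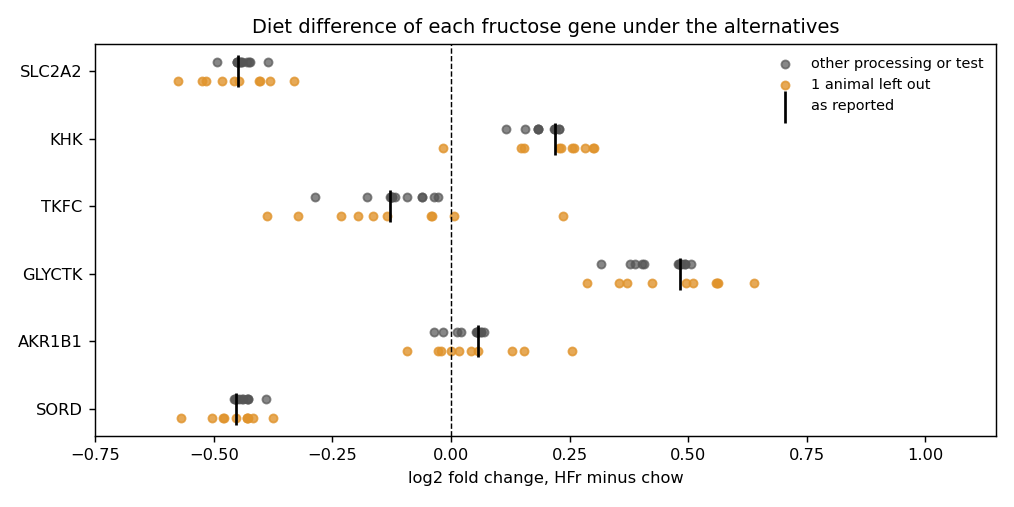
Log2 fold change, HFr minus chow (x axis), of each tested fructose gene as reported (black line), under other processing or tests (grey points) and with 1 animal left out (orange points). SORD and SLC2A2 are negative and GLYCTK positive throughout, while AKR1B1, KHK and TKFC cross 0.

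The levels of SLC2A2 and SORD rose and fell together across the 10 livers. Of the 15 pairs of tested fructose genes, this was the only one with an adjusted p under 0.05. The permutations mixed animals of both diets, so the p-values do not separate this relation from the diet difference that both genes share. Pearson's r of the log2 levels was 0.91 (permutation p = 0.00037, Benjamini-Hochberg adjusted over 15 pairs p = 0.00555) and Spearman's rho was 0.90 (permutation p = 0.00082, adjusted p = 0.0123). Without the 2 livers farthest from the median of SLC2A2, r was 0.95. After each diet's mean was removed r was 0.85. Within the diets it was 0.68 on HFr and 0.92 on chow (n = 5 each). The values with the means removed and within the diets are given without a test. The relation was positive within each diet. Chow animal 1, lowest of the chow livers in both genes, was not among the 2 livers left out. Each gene also had a transcript outside the list at r = 0.93, BCAR3 for SLC2A2 and BCKDHB for SORD. How often pairs of other transcripts reach such an r was not examined.

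Every other pair had an adjusted p of 0.212 or more for r. The 2 kinases KHK and TKFC gave r = 0.62 over 10 livers, and 0.35 without the 2 livers farthest from the median. KHK and GLYCTK also gave r = 0.62, and 0.21 without those livers. KHK and AKR1B1 gave r = -0.63, which moved to -0.0035. KHK and SORD gave r = 0.21 over all livers, and 0.58 after each diet's mean was removed. For the mitochondrial share of the libraries, the 6 relations with these genes had adjusted p of 0.537 or more for both r and rho, with r between -0.42 and 0.21.

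**Figure D4:**
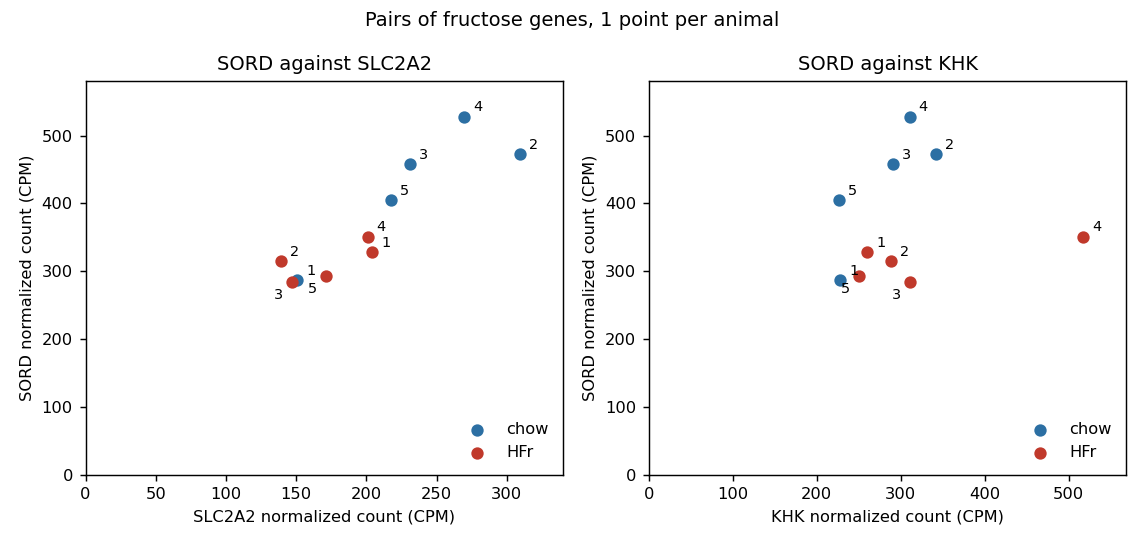
SORD normalized counts in CPM (y axis) against SLC2A2 (left x axis) and KHK (right x axis), 1 point per animal with its replicate number, chow in blue and HFr in red. SORD follows SLC2A2 with 4 chow livers at the upper end, and HFr animal 4 stands apart in KHK.

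Among tested transcripts with a gene symbol and outside the fructose genes, the 3 with the pattern most like each gene were named. They were ranked by Pearson's r of log2 levels over the 10 livers, as a description. The pair of SLC2A2 and SORD, at r = 0.91, was thus left out, although its r was above that of AZGP1 with SLC2A2. SORD was nearest to BCKDHB, a subunit of the branched-chain ketoacid dehydrogenase (r = 0.93), ACSF2, an acyl-CoA synthetase (r = 0.90), and WDR1, an actin disassembly factor (r = 0.90). SLC2A2 was nearest to BCAR3 (r = 0.93), DHRS3, a retinal reductase (r = 0.91), and AZGP1, a secreted zinc-binding glycoprotein (r = 0.89).

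KHK was nearest to ARHGEF10L (r = 0.95), TYMP, thymidine phosphorylase (r = 0.93), and ZNF211 (r = 0.93). TKFC was nearest to CLTCL1, a clathrin heavy chain (r = 0.96), PCK2, the mitochondrial phosphoenolpyruvate carboxykinase (r = 0.96), and DMTN, an actin-binding protein (r = 0.95). GLYCTK was nearest to PLOD3, a lysyl hydroxylase (r = 0.94), TST, a sulfur transferase (r = 0.91), and NR1I2, the xenobiotic receptor PXR (r = 0.91). AKR1B1 was nearest to UCHL3, a ubiquitin hydrolase (r = 0.91), DOPEY1 (r = 0.90) and PRPF19, a splicing factor (r = 0.87). Without the 2 livers farthest from the median of AKR1B1, r with PRPF19 was 0.43. These correlations carry no test. They were picked as the highest of the 7948 tested transcripts, leaving out fructose genes and transcripts without a gene symbol.

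Around these genes, 47 gene symbols of connected steps were listed in 5 groups, of which 42 were in the table and 26 were tested. On HFr, 15 were higher and 11 lower, their median log2 fold change was 0.05 against -0.00075 for all tested transcripts, and 1 had an unadjusted p under 0.05. This is 3.85% of the 26, close to the 4.29% of all tested transcripts. That gene was ADH4, and no related gene had an adjusted p under 0.05.

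ADH4 belongs to the 9 genes listed for the steps that follow fructose 1-phosphate, of which 6 were tested, 4 higher and 2 lower, although GPD1, one of the higher genes, turned negative with library size scaling alone. ADH4 encodes an alcohol dehydrogenase, a class of enzymes that can reduce glyceraldehyde to glycerol (chromosome 7, 47226191 to 47248235). Its level in HFr animals 1 to 5 was 369, 168, 527, 631 and 215. In chow animals 1 to 5 it was 407, 1056, 791, 700 and 1156. All chow livers but animal 1 were above every HFr liver. The mean was 382 ± 198 (SD, n = 5) on HFr and 822 ± 298 (SD, n = 5) on chow, with a log2 fold change of -1.11 (SE 0.37, unadjusted edgeR p = 0.00984, adjusted p = 0.9996, permutation p = 0.0397). The unadjusted p was under 0.05 in all 23 alternatives, between 0.00306 and 0.0365. Reads of ADH4 may be shared with other alcohol dehydrogenase genes, which makes its level uncertain.

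In the same group, ALDH1A1, an aldehyde dehydrogenase, had a log2 fold change of -0.38 (SE 0.20, unadjusted edgeR p = 0.0791, permutation p = 0.0556). TPI1, triosephosphate isomerase, had means of 164 ± 21.3 on HFr and 137 ± 10.7 on chow (SD, n = 5 each) and a log2 fold change of 0.26 (SE 0.16, unadjusted edgeR p = 0.127, permutation p = 0.0556). TPI1 was named after its values had been seen.

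**Figure D5:**
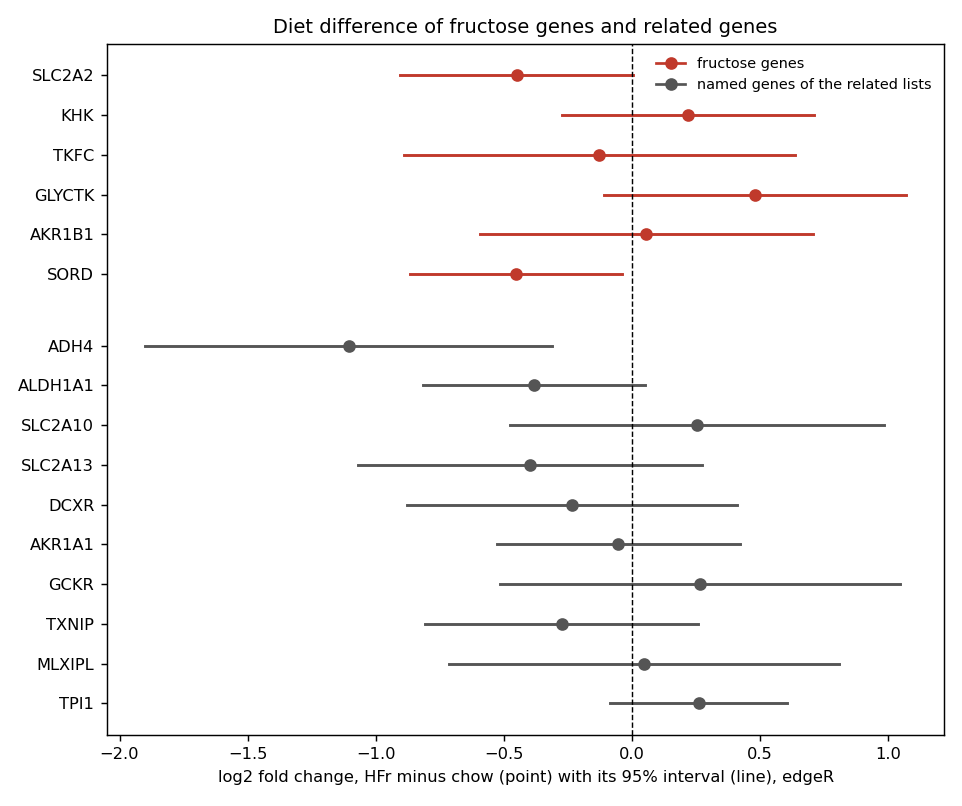
Log2 fold change, HFr minus chow (x axis), with its 95% interval, for the 6 tested fructose genes (red) and the named genes of the connected steps (grey). The intervals of SORD and ADH4 lie below 0, and that of SLC2A2 just reaches it.

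Of 12 other hexose transporters listed, 11 were in the table and 3 were tested, with 2 higher, 1 lower and none with an unadjusted p under 0.05. SLC2A10 had a log2 fold change of 0.25 (SE 0.34), which ranged from 0.05 without HFr animal 1 to 0.44 without chow animal 4. SLC2A13, an inositol carrier, had one of -0.40 (SE 0.31), which was -0.23 without HFr animal 1. SLC2A7 and SLC2A9, the latter a carrier of urate, were listed at 0 in every library.

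Of 6 other genes listed for polyols and sugars, reductases and kinases among them, 5 were tested, 1 higher and 4 lower. Their median log2 fold change was -0.10, and the higher gene was a kinase and not a reductase. DCXR, which reduces L-xylulose, had a log2 fold change of -0.23 (SE 0.30) and AKR1A1, aldehyde reductase, of -0.05 (SE 0.22). The sign of DCXR turned without chow animal 2.

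Of the 6 listed hexokinases and their regulator, 4 were tested, all with a positive fitted log2 fold change (median 0.20) and none with an unadjusted p under 0.05. HK3 was at 0.04 (SE 0.35), although its mean was 6.31 on HFr and 6.39 on chow. GCKR, the regulatory protein that fructose phosphates act on, had a log2 fold change of 0.27 (SE 0.36) and of -0.0063 without HFr animal 4.

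Carbohydrate response genes, those of the glucose-sensing factor ChREBP with its relatives, partners and targets, were listed under 14 symbols. Of these, 13 were in the table and 8 were tested. G6PC and G6PC1 are names of the same gene, and only G6PC was in the table. There were 4 higher and 4 lower, apart from the turn of MLXIPL given next, and none had an unadjusted p under 0.05. MLXIPL, which encodes ChREBP, had a log2 fold change of 0.05 (SE 0.36), whose sign turned under 7 of 23 alternatives, library size scaling among them. TXNIP, a well-known ChREBP target, had means of 118 ± 42.3 on HFr and 143 ± 18.4 on chow (SD, n = 5 each), with a log2 fold change of -0.27 (SE 0.25, unadjusted edgeR p = 0.289, permutation p = 0.278), which was -0.10 without HFr animal 4.

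Markers of other cells in the biopsies were compared beside these values. Of 8 stellate cell and fibroblast markers, 6 were tested, 5 of them lower, and ACTA2, the smooth muscle actin of activated stellate cells, had a log2 fold change of -1.57 (SE 0.49, unadjusted edgeR p = 0.00646, adjusted p = 0.9996, permutation p = 0.0476). Their summed level was 224 to 407 on HFr and 180 to 827 on chow. All 7 endothelial markers were tested, 5 higher and 2 lower, with summed levels of 219 to 239 on HFr and 158 to 236 on chow. KDR, the VEGF receptor, had a log2 fold change of 0.57 (SE 0.19, unadjusted edgeR p = 0.0109, adjusted p = 0.9996, permutation p = 0.0317). In the stellate and the endothelial list, 1 gene each had an unadjusted p under 0.05, 16.7% and 14.3% of those tested. The share was 4.29% of all tested transcripts and 0% in the other marker lists with tested genes. All 6 tested of 8 macrophage markers were higher, none with an unadjusted p under 0.05, and their sums were 39.7 to 169 on HFr and 40.5 to 171 on chow. Of the cholangiocyte, lymphocyte and blood cell markers, 2 of 6, 3 of 8 and 1 of 6 were tested, none with an unadjusted p under 0.05. The 3 tested lymphocyte markers were 1 higher and 2 lower, with a median log2 fold change of -0.0014. GZMA, a protease of cytotoxic lymphocytes, had too few counts for the edgeR test (26 in all on HFr, 12 on chow). It held 3 to 6 counts per HFr library and 1 to 4 per chow library. Its level was above every chow liver in 5 of 5 HFr livers (1.19 to 1.88 against 0.183 to 1.01, permutation p = 0.00794, the smallest possible). Over all tested transcripts, 0.541% had values that did not overlap between the diets. Of the muscle and of the intestine and kidney markers, 0 of 7 and 1 of 7 were tested. The part of cell composition in the SORD, SLC2A2 and ADH4 values was not tested.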

How the data were processed

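The deposited tables hold estimated counts per Ensembl transcript and a normalized signal. The authors sequenced polyadenylated RNA as paired reads, aligned them to ChlSab1.1 (STAR 2.5.3a in the submitters' processing notes) and estimated counts by expectation-maximization in Partek Flow. The normalized signal was scaled by the authors with TMM after transcripts without reads were removed. Whether counting used strand is not given in the sources used here. Of the estimated counts, 97.69% were whole numbers.

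Counts were rounded, filtered with filterByExpr (minimum count 10, minimum total 15, 7948 of 28078 transcripts kept) and compared with edgeR 4.0.16 (R 4.3.3) by the quasi-likelihood test after TMM, with diet as the only term. P-values were adjusted over all tested transcripts (threshold 0.05). The SE is the size of the log2 fold change divided by the square root of F. Correlations used log2(CPM + 1) and 100000 permutations (scipy 1.17.1). The procedure was tested on simulated data.

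The members and lists were chosen with earlier results of these data known. Named genes are the members and the list genes with an unadjusted p under 0.05 or the 2 highest levels in their list. Also named are the 3 transcripts most correlated with each tested member, among non-members with a gene symbol. Some genes of the related lists are counted in the totals and not reported here. The diet p-values set the difference between the diets against the spread between animals. Alternatives were DESeq2 1.42.0, its size factors, library size scaling, limma 3.58.1 (pseudocount 1 or 0.1), voom with quality weights, an equal-variance comparison of the authors' normalized values, other count filters, counts summed by symbol, no mitochondrial transcripts, a replicate block and each animal left out. The mitochondrial covariate was added after seeing the data. The authors' comparisons, proteins, metabolites and miRNAs were not used here.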

Additional observations from a re-analysis of the deposited data

Results flagged for a closer look

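In 42 groups of 5 animals checked for a single value far from the rest (Dixon's test), 2 values stood out, and chance flags about 1 in 20 groups. KHK was at 517 normalized counts in HFr replicate 4, with the other HFr animals between 250 and 311. DCXR was at 347 in chow replicate 2, with the other chow animals between 102 and 159.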

How the results depend on the processing

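Of the fructose genes, SLC2A2, SORD and GLYCTK kept their sign in all 23 alternatives, and no alternative gave any fructose gene an adjusted p under 0.05 (lowest 0.838). The count of 341 transcripts with an unadjusted p under 0.05 became 123 with library size only and 756 with a count above 0 in any animal, and ranged from 260 to 408 with 1 animal left out. Of the 341, 48.1% were higher on HFr, against 65.6% of 343 in the equal-variance comparison of the authors' normalized values. Adjusted calls rose from 0 to 1 with library size only (CAPSL) and 2 with DESeq2 (CPE, RRM2), none a fructose gene. Fructose genes with an unadjusted p under 0.05 numbered 1 as reported, 0 with library size only, with a count above 0 in any animal and with the replicate block, and 2 with DESeq2, voom or no mitochondrial transcripts. They ranged from 0 to 2 with 1 animal left out. For the related lists the count of 1 became 2 with library size only, DESeq2 and the equal-variance comparison, and ranged from 1 to 2 with 1 animal left out.

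AKR1B1 turned to -0.0173 and -0.0349 with limma at pseudocounts of 1 and 0.1. MLXIPL turned to -0.0570 with library size only, -0.0872 with voom and -0.0016 with the replicate block. With 1 animal left out, the log2 fold change ranged from -0.0165 to 0.30 for KHK, -0.39 to 0.24 for TKFC, -0.0922 to 0.26 for AKR1B1, 0.29 to 0.64 for GLYCTK, -0.17 to 0.27 for MLXIPL, -0.38 to 0.17 for DCXR, -0.16 to 0.0735 for AKR1A1, -0.40 to -0.10 for TXNIP, 0.05 to 0.44 for SLC2A10, -0.52 to -0.23 for SLC2A13 and -0.0063 to 0.47 for GCKR. The diet difference in mitochondrial share, 0.07 percentage points, ranged from -5.10 to 4.61. The causes were not tested.

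Animals that share a replicate number were not treated as pairs, and no pairing is stated in the sources used here. Correlations of their deviations from the diet means ran from -0.29 to 0.10, which cannot by themselves exclude a pairing. The replicate block lowered the count of 341 to 271 and gave SORD a log2 fold change of -0.43 with an unadjusted edgeR p of 0.0666. Depth limits SLC2A5 and SLC2A8, with at most 4 and 9 counts per library, and leaves AKR1B1 at 13 to 40.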

Other observations

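Ratios of some pairs of fructose genes within each liver were looked at after the values had been seen, and are given without a test. Ratios of the remaining pairs were not examined. A higher ratio to SORD on HFr follows from the positive log2 fold changes of KHK and GLYCTK and the negative one of SORD. The ratio of KHK to SORD normalized counts was 0.792, 0.918, 1.098, 1.47 and 0.856 in HFr animals 1 to 5 and 0.795, 0.723, 0.635, 0.589 and 0.561 in chow animals 1 to 5. HFr animals 2 to 5 were above every chow animal, and HFr animal 1 was just below chow animal 1. The ratio of GLYCTK to SORD was 0.0498 to 0.124 on HFr and 0.0422 to 0.0545 on chow, with 4 HFr animals above every chow animal. The ratio of KHK to SLC2A2 had 3 such animals, and that of TKFC to KHK had 0. The ratio of SORD to SLC2A2, the pair that moved together, was 1.61 to 2.26 on HFr and 1.53 to 1.98 on chow.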
